A study of Mus musculus with 15 samples.

Results

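The ADAM family genes of the mouse testis are described here in RNA sequencing of whole testes. Every gene whose symbol is Adam, then digits and an optional single letter, was taken at any level of expression, without the Adamts genes and without pseudogenes. This gave 34 genes of the 36118 in the table. By their known sites of expression, 21 are germ cell genes, 11 are somatic genes and 2, Adam7 and Adam28, are genes of the epididymis. These classes are labels from prior knowledge, and values of whole testes do not show which cells made the RNA. Of the 34 genes, Adam34l carries an older name in the annotation used and was found through RefSeq.

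The testes came from C57/BL6 mice, with 15 libraries in 5 groups of 3, namely MTX, HMS-I1, AA, TSA and Control. The series concerns modifications of histones H3 and H4 and chromosome organisation in meiotic prophase. The labels name the 4 treatments by these abbreviations alone and give no dose, duration or age. The 3 libraries titled as HMS-I1 replicates are HMS-I1, HMS-I2 and HMS-I3 in the treatment field, and the titles were followed. The labels do not say whether a replicate is its own animal, so p-values cover the spread among these samples alone, and that spread may be technical. Values are normalised counts, that is, estimated reads of a gene scaled between libraries by the authors. The sequencing depth of the libraries is unknown, and the column sums of 2.75e+07 to 4.06e+07 are not depths. In bulk tissue, fewer cells of a type and less RNA per cell cannot be told apart.

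ADAM proteins are membrane proteins with a prodomain, a metalloprotease domain, a disintegrin domain and a cysteine-rich region. Members that keep the zinc-binding motif of the protease can cut the outer parts of other membrane proteins, and ADAM10 and ADAM17 are the best known of these sheddases. In the mouse, many members are made by developing male germ cells and end up on the sperm surface. These include the subunits of fertilin, ADAM1 and ADAM2, and cyritestin, ADAM3, which sperm need to pass from the uterus into the oviduct and to bind the zona pellucida.

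The zinc site was the first feature that split the family. It is the stretch of coding sequence for the active site, in which 3 histidines hold the zinc ion. It was encoded in 12 of the 21 germ cell genes, 8 of the 11 somatic genes and 1 of the 2 epididymal genes. The 33 bases are shown for the sheddases and for germ cell genes that the results turn on, taken from the GENCODE M21 coding sequences of GRCm38, with the histidine codons in capitals.
Adam10: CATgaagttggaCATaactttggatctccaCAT
Adam17: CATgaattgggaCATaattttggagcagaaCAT
Adam12: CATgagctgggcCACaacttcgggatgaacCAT
Adam24: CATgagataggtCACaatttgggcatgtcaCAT
Adam34: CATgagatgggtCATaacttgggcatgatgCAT
Adam34l: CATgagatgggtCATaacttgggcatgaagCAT
Adam20: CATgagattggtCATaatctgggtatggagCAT
Adam25: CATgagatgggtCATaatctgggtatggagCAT
Adam39: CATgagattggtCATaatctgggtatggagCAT
Adam1a: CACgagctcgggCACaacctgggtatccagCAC
Adam1b: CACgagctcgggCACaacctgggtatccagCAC

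Some germ cell genes carried close copies of the site and others did not. Adam1a and Adam1b had the same 33 bases, as did Adam20 and Adam39. Adam25 differed from Adam20 at 1 base, and Adam34 differed from Adam34l at 1 base. Adam10 and Adam17, the sheddases of Notch and of tumour necrosis factor, differed from each other at 7 bases. Other pairs of germ cell genes varied. There were 2 bases between Adam26a and Adam26b, 3 between Adam26b and Adam34l and 6 between Adam24 and Adam34. There were 7 between Adam20 and Adam24, 12 between Adam1a and Adam24 and 16 between Adam1a and Adam30. Genes without the site included Adam2, Adam3, Adam5, Adam18 and Adam32 of the germ cells and the somatic Adam11, Adam22 and Adam23, which are known as receptors rather than proteases.

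The germ cell genes also split by gene structure. In 16 of the 21, the whole coding sequence lies in 1 exon, and in Adam2, Adam3, Adam5, Adam18 and Adam32 it is spread over several. None of the 11 somatic genes has its coding sequence in 1 exon. This division of the germ cell genes was made after values were seen, so it is used only to describe them. All 12 germ cell zinc sites fell in the genes with 1 coding exon. Chromosome 8 carries 14 of the 34 genes, among them 9 of the 16 with 1 coding exon. Runs of neighbouring members lie there, Adam18, Adam3, Adam5, Adam32 and Adam9 (5 genes), Adam24, Adam25, Adam20 and Adam39 (4 genes), and Adam26b, Adam26a, Adam34l and Adam34 (4 genes). Adam6a and Adam6b are neighbours on chromosome 12, and Adam1a and Adam1b on chromosome 5.

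Promoter windows from 250 bases before to 50 bases after the RefSeq start were found for 18 of the 34 genes, 11 germ cell and 7 somatic, and all 11 germ cell genes have 1 coding exon. The windows of Adam6a (chr12:113543658-113543957, plus strand), Adam6b (chr12:113489315-113489614, plus strand) and Adam29 (chr8:55906915-55907214, minus strand) are shown because these genes had the largest log2 differences in the TSA libraries described further on. They are from RefSeq on GRCm38.p6, and capitals mark TATAAA or CCAAT on either strand.
Adam6a: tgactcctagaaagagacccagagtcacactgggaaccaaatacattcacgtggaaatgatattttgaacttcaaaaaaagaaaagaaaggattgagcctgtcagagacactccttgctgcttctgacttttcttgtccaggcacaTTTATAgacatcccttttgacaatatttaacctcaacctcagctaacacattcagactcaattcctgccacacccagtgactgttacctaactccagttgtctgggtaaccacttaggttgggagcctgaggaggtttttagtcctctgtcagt
Adam6b: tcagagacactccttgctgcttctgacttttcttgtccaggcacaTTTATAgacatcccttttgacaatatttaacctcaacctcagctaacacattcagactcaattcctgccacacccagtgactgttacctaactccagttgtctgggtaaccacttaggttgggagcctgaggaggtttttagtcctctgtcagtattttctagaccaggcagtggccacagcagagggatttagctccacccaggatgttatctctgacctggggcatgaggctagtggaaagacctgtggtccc
Adam29: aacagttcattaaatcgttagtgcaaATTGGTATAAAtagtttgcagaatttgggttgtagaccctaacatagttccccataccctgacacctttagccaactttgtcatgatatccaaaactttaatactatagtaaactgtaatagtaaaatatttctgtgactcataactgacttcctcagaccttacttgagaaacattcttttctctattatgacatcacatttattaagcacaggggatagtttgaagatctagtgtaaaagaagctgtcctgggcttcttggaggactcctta

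The Adam6a and Adam6b windows hold an identical run of 199 bases, which begins at -149 from the RefSeq start in Adam6a and at -250 in Adam6b. Both strands were searched for each motif. Adam19 has several windows, and a gene was counted if any of its windows held the motif. Shares of all promoters are per promoter. TGACGTCA is the full cAMP response element, which is known from promoters of spermatid genes. It was found for 0 of the 11 germ cell genes, 0 of the 7 somatic genes and 1.88% of all 27025 promoters. TGACG, which every TGACGTCA also contains, was found for 0 of 11 germ cell genes, 1 of 7 somatic genes and 21% of all promoters. CCAAT was found for 7 of 11 germ cell genes, 4 of 7 somatic genes and 37.9% of all promoters. TATAAA was found for 4 of 11 germ cell genes, 0 of 7 somatic genes and 14.2% of all promoters. A match to these letters is a description of the window and shows no binding.

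Germ cell members dominated the family's signal in the testis. Per kilobase of transcript, the mean over the 15 libraries was 14837 normalised counts for Adam5, 10839.5 for Adam3, 7522 for Adam32 and 6799 for Adam2. These 4 genes lie in the group with several coding exons. Adam18 followed at 2054 per kilobase, then Adam1b at 1931, Adam24 at 1718, Adam1a at 1609 and Adam6a at 1445. The other germ cell genes ranged down to 137 per kilobase for Adam34l.

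Among the somatic members, Adam10 had the highest level at 399 normalised counts per kilobase. Adam9, a widely expressed metalloprotease, stood at 271 per kilobase and Adam17 at 259.6. Adam15 averaged 93.6, Adam23 averaged 64.2 and Adam8, a gene of immune cells, averaged 41.5 per kilobase. The lowest somatic gene was Adam33 at 5.04 per kilobase. Adam28 at 0.446 and Adam7 at 0.0469 per kilobase were the lowest of the family and above 0 in 11 and 4 libraries. The defining epididymal genes Lcn5 and Lcn8 were at 0 in all 15 libraries, and 1 of the 6 epididymal markers had a mean of at least 10.

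Neighbours in this order overlapped from library to library. Adam5 ranged from 8608 to 22819 normalised counts per kilobase over the 15 libraries and Adam3 from 4305 to 20070.2, so the ranges of the 2 leading genes overlap. Adam32, at 3782 to 13332 per kilobase, and Adam2, at 4995 to 8045, overlap with each other and with Adam3. Adam18 and Adam1b stood apart from these in every library, at 1700.1 to 2518 and 1474 to 2349 per kilobase, and overlap with each other. The leading somatic genes overlap as well, with Adam10 at 219 to 724, Adam9 at 172 to 474 and Adam17 at 204 to 366 per kilobase. Adam15 at 53.4 to 119 and Adam8 at 21.1 to 58.2 per kilobase lay below these 3 in every library. On the log2 scale the widest range was that of Adam6a, at 46.4 to 2052 per kilobase.

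All 21 germ cell and 11 somatic members had a mean of at least 10 and were among the 17896 genes tested, and neither epididymal gene was. Of the 34 members, 32 were above 0 in every library.

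The somatic members that no comparison picked out varied within each group. Adam9 had 809, 1347 and 776 normalised counts in MTX, 769, 1342 and 786 in HMS-I1, 749.7, 1474 and 1917 in AA and 803, 1675 and 1029.7 in TSA, against 939, 695 and 1348 in Control. Adam23, a receptor known from the brain, had 444, 488 and 238 in MTX, 325, 530.2 and 379 in HMS-I1, 389, 443 and 691 in AA and 190.2, 554 and 376 in TSA, against 491, 298 and 349.6 in Control. Each treatment overlapped Control for both genes. Adam8 had 152, 88.6 and 93.6 in MTX, 171, 65.6 and 159 in HMS-I1, 130.4, 123 and 144 in AA and 182, 131 and 149.9 in TSA, against 134, 105 and 114 in Control, and here too each treatment overlapped Control.

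**Figure D1:**
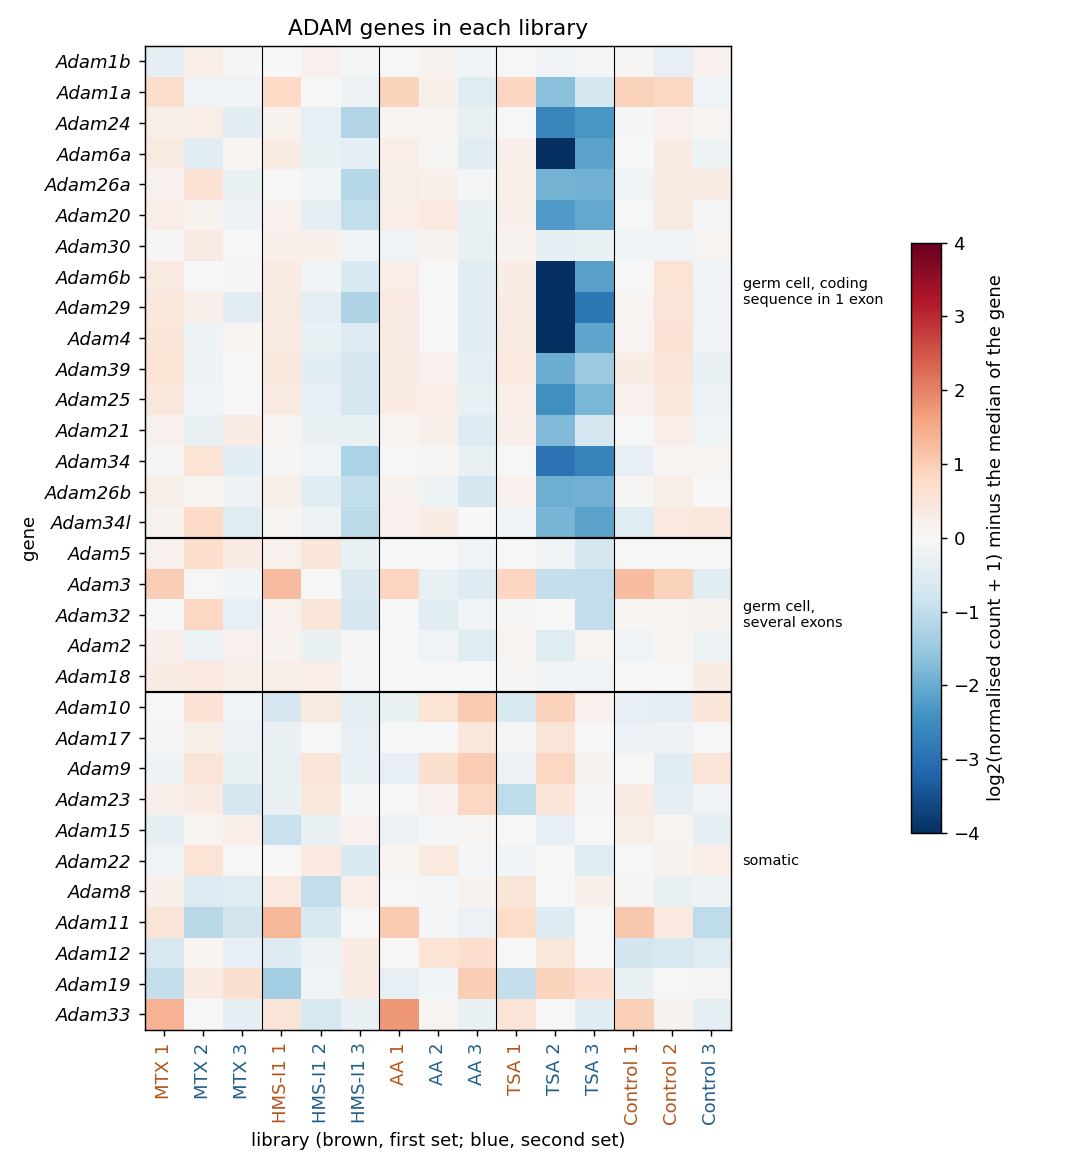
Log2(normalised count + 1) of the 32 tested members minus the median of each gene, with a row per gene grouped by class and a column per library, by group in the order MTX, HMS-I1, AA, TSA and Control. Differences below -4 take the darkest colour, and 14 of the 16 germ cell genes with 1 coding exon are lowest in TSA replicates 2 and 3, with Adam1b and Adam30 as the exceptions.

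Libraries of the same group were not alike. The first set of 6 libraries, made up of replicate 1 of MTX, HMS-I1, AA and TSA with Control replicates 1 and 2, had a mean log2 value of 59 histone genes of 7.79 to 8.84 and a mitochondrial share of 1.08% to 1.40%. The other 9, the second set, had 2.93 to 3.84 and 3.54% to 13.7%. The set therefore cuts across the groups, with 1 library of each treatment and 2 of Control in the first. It was defined from histone genes and holds no member of the ADAM family.

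Germ cell ADAM genes ran higher in the first set. The mean log2 value was higher in the first set for 20 of 21 germ cell members and for 3 of 11 somatic members. The median difference was 0.84 on the log2 scale over germ cell members, -0.19 over somatic members and 0.0013 over all genes tested. Every first-set library was above every second-set library for 5 of 21 germ cell genes (Adam3, Adam1a, Adam6b, Adam4 and Adam39) and 2 of 11 somatic genes (Adam11 and Adam33), and for 12.8% of all genes tested. The reverse, all below, held for 0 of 21 and 0 of 11, and for 12.0% of all genes tested. The germ cell median includes TSA replicates 2 and 3, which were low for other members as described further on.

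Adam3 showed the separation most clearly among the abundant members. It had 42162, 45094 and 55052 normalised counts as the lowest, median and highest values in the first set, against 11807, 17171 and 23721 in the second. Adam1a, the ADAM1 form of the endoplasmic reticulum that pairs with ADAM2, had 7524, 8391 and 8888 in the first set, against 1454, 4182 and 5323 in the second. The 2 sets do not overlap for either gene, and a treatment's value for them depends on how many of its libraries come from each set. Control replicate 3 illustrates this, with 17171 for Adam3 against 55052 and 44402 in Control replicates 1 and 2.

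Not all sperm members followed the sets. Adam2 had a range of 12742 to 20523 over the 15 libraries and Adam1b, the fertilin subunit of the sperm surface, a range of 4921 to 7841, with first-set and second-set libraries intermixed. Of the somatic members, Adam11 had 125, 178 and 240.1 as the lowest, median and highest values in the first set, against 44.1, 65.9 and 97.5 in the second. Adam33 had 13.5, 21.1 and 42.1 in the first set, against 7.33, 9.61 and 13.2 in the second. Adam10 lay the other way, with 1007, 1253 and 1616 in the first set, against 1220.1, 2285 and 3328 in the second, and its sets overlap. The summed elongating spermatid markers were 628486 to 906766 in the first set, against 192844 to 423513 in the second, and the summed Sertoli cell markers were 8643 to 9669 in the first set, against 10750.5 to 18255 in the second. Within the elongating list, Tnp1 and Prm2 did not overlap between the sets, while Prm1, Tnp2, Odf1 and Akap4 did. Within the Sertoli list, Sox9, Wt1 and Cldn11 did not overlap and the other markers did. The part of these cell types in the set differences was not tested.

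Set side by side, the mean log2 value of the 21 germ cell members exceeded that of the 11 somatic members in every library. The gap was 4.34, 4.14 and 4.18 in MTX replicates 1, 2 and 3. It was 4.53, 4.06 and 3.53 in HMS-I1 and 4.12, 3.93 and 3.32 in AA. It was 4.40, 1.77 and 2.61 in TSA, against 4.05, 4.51 and 4.15 in Control. TSA replicates 2 and 3 had the 2 lowest gaps of the 15 libraries, and TSA replicate 1 lay within the Control range. The gap is a difference of mean log2 values per gene and no ratio of levels per kilobase.

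**Figure D2:**
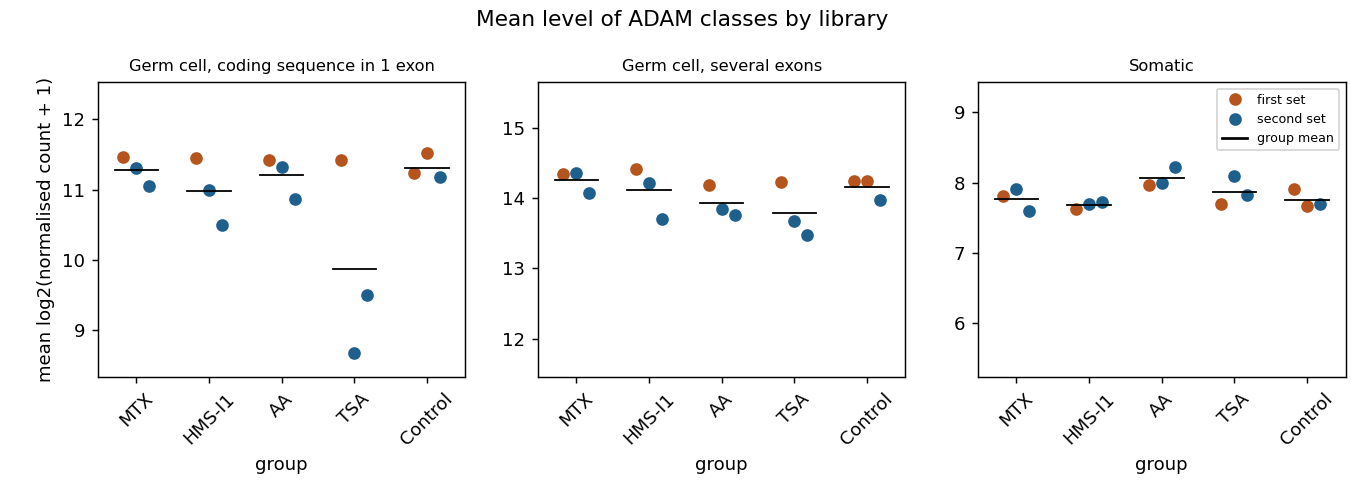
Mean log2(normalised count + 1) of the 16 germ cell members with 1 coding exon, the 5 with several and the 11 somatic members, by group in the order MTX, HMS-I1, AA, TSA and Control. Points are libraries coloured by set, lines are group means, and the mean of the members with 1 coding exon is lowest in TSA replicates 2 and 3.

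The comparison of TSA with Control asks which members differ under the treatment called TSA. In 14 of the 16 germ cell members with 1 coding exon, TSA replicates 2 and 3 had the 2 lowest values of the 15 libraries, while TSA replicate 1 resembled Control. By limma on log2(normalised count + 1) with Benjamini-Hochberg adjustment over all 17896 genes, 0 members and 0 genes (0%) passed 0.05. At an unadjusted p under 0.05 there were 13 members, 12 lower and 1 higher, among 1027 genes or 5.74% of those tested. All 12 lower members were germ cell genes with 1 coding exon, and the lower genes made up 5.33% of those tested.

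Adam24, whose product testase 1 is a protease of mouse sperm, had the smallest p among the lower members. It had 5763, 924 and 1141 normalised counts in TSA replicates 1, 2 and 3, against 5609, 6493 and 6020.1 in Control. TSA averaged 2609 ± 2734 and Control 6040.4 ± 442 (SD, n = 3 each). The difference was -1.72 on the log2 scale with an SE of 0.55, and limma gave an unadjusted p of 0.00779 and an adjusted p of 0.848. TSA replicates 2 and 3 were below all Control libraries and TSA replicate 1 was among them.

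Adam34, the gene of testase 4, had 1413, 183 and 222 normalised counts in TSA, against 1117, 1523 and 1519.8 in Control. Its difference was -1.83 on the log2 scale (SE 0.61), with an unadjusted p of 0.0108 and an adjusted p of 0.848 by limma. In MTX, HMS-I1 and AA it lay between 585 and 2058, above both low TSA libraries.

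The widest ranges over the 15 libraries belonged to Adam6a, Adam6b and Adam4, whose products have been found in complexes with ADAM3 on mouse sperm. Adam6a had 4760.2, 119 and 929 normalised counts in TSA, against 4132, 5218 and 3596 in Control, and 3058 to 5249 in the other treatments. Adam6b had 3375, 101 and 611 in TSA, against 2826, 4023 and 2589.8 in Control. Adam4 had 2947, 106 and 522 in TSA, against 2434, 3421 and 2046 in Control. Each of the 3 was lowest in TSA replicate 2, low in TSA replicate 3 and within the Control range in TSA replicate 1. Their log2 differences were -2.40 (SE 0.89), -2.37 (SE 0.85) and -2.23 (SE 0.82), and none passed, with an adjusted p of 0.848 each by limma.

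Adam29, named after its values were seen, behaved the same way, with 3521, 150.3 and 374 normalised counts in TSA, against 2998, 3985 and 2534 in Control. Its window holds ATTGG, which is CCAAT on the other strand, directly before TATAAA, as printed above. Adam1b and Adam30 were the exceptions among the genes with 1 coding exon. Adam1b had 6497, 5873 and 6204 in TSA, against 6764, 5211 and 7257 in Control. Adam30 had 3060.5, 2179 and 2328 in TSA, against 2585, 2574 and 2963 in Control, and here too TSA replicates 2 and 3 were the lower libraries.

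The genes with several coding exons differed less. Adam18 had 4659, 4141 and 4014 normalised counts in TSA, against 4497, 4509 and 5529.8 in Control, and the groups overlap. Adam2 had 19513, 13011 and 19540.0 normalised counts in TSA, against 16274, 19187 and 15684 in Control, and the groups overlap. Adam3 had 42162, 12131 and 11807 in TSA, against 55052, 44402 and 17171 in Control, with TSA replicates 2 and 3 below the second-set Control library. Adam5 had 35635, 32952 and 22036 in TSA, against 35696, 36689 and 36658 in Control, and Adam32 had 18934, 18007 and 9266 in TSA, against 19212, 19708 and 20143 in Control. For Adam5, Adam32 and the somatic Adam22, all TSA libraries were below all Control libraries, which held for 2.18% of all genes tested. Adam22 had 196, 213 and 153 in TSA, against 216, 235 and 257 in Control. TSA replicate 1 was close to the lowest Control library for both Adam5 and Adam32.

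Counted over the class, 20 of 21 germ cell members were lower in TSA, with a median log2 difference of -1.34, where the median of all genes tested was 0.0061. The 16 with 1 coding exon were all lower, with a median of -1.46, and the 5 with several had a median of -0.30. Of the somatic members, 6 were higher and 5 lower, with a median of 0.22. With the library set in the model, 5 somatic members were higher and 6 lower, with a median of -0.007. In that model 20 of 21 germ cell members were lower, with a median of -1.07. Within the first set, where TSA is replicate 1 and Control replicates 1 and 2, the germ cell median was 0.027. Within the second set, where TSA is replicates 2 and 3 and Control is replicate 3, it was -1.91. For Adam6a the first-set difference was 0.036 and the second-set difference was -3.43.

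Without TSA replicate 1, limma called 12 of the 32 tested members at an adjusted p under 0.05, all lower in TSA and all germ cell genes with 1 coding exon, among 992 genes or 5.54% of those tested. Among these, Adam24 had a log2 difference of -2.55 with an adjusted p of 0.00418, Adam34 one of -2.76 with 0.00418 and Adam6a one of -3.68 with 0.00594. Leaving out TSA replicate 1 left only second-set libraries in TSA, while Control replicates 1 and 2 are of the first set. The differences in that fit therefore mix treatment with library set. Without TSA replicate 2 or without TSA replicate 3, 0 members passed. In the second set alone, 0 members passed among 7 genes called (0.0391%), and 12 germ cell members with 1 coding exon were lower at an unadjusted p under 0.05, where lower genes were 7.55% of those tested. In that fit Control is replicate 3 alone, which is assumed to vary like the other groups. With library weights fitted by limma, 16 members passed among 23.7% of all genes, in a fit whose weights did not converge. These weights changed every library at once.

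Set against the 13 other libraries, TSA replicates 2 and 3 were both below all of them for 16 of 21 germ cell members and 0 of 11 somatic members, and for 11.0% of all genes tested. Both were above all of them for 0 of 21 and 0 of 11, and for 2.84% of all genes. The 16 were 14 of the 16 genes with 1 coding exon, together with Adam3 and Adam18. Against the 7 other second-set libraries, the count below was again 16 of 21, with 12.1% of all genes, and the count above was 0 of 21, with 3.58% of all genes. The median log2 difference from those 7 was -1.94 over genes with 1 coding exon, -0.48 over those with several, 0.15 over somatic members and 0.050 over all genes. The 4 genes with 1 coding exon and no zinc site, Adam6a, Adam6b, Adam29 and Adam4, had the 4 largest differences from those 7 libraries, at -3.40, -3.28, -3.20 and -3.06 on the log2 scale. The 12 with a zinc site ranged from -2.59 for Adam34 to -0.18 for Adam1b. These 2 libraries were singled out after values were seen, so the counts are a description.

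**Figure D3:**
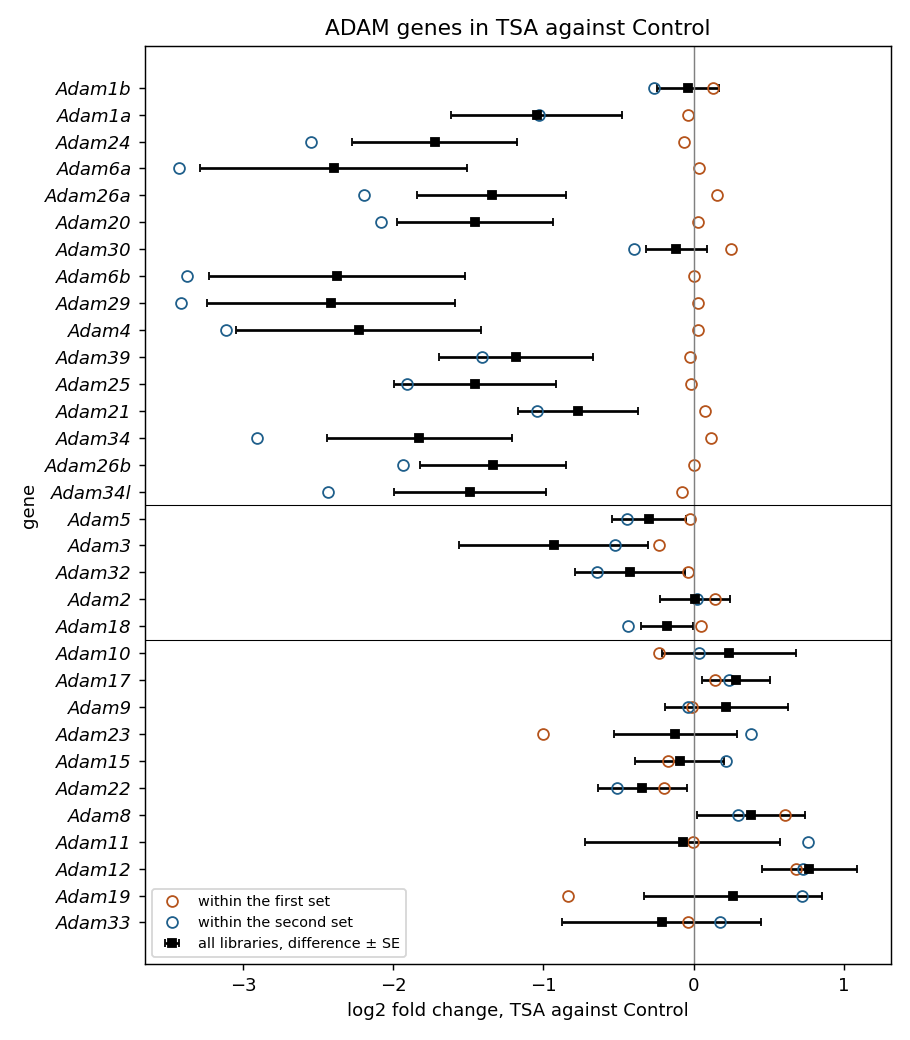
Log2 fold change of each tested member, TSA against Control, with squares and SE bars for all libraries and open circles for the difference within each library set, where values below 0 mean lower in TSA. In the first set the genes with 1 coding exon lie between -0.076 and 0.25, and they reach -3.43 for Adam6a in the second.

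Markers of some cell types differed in the same 2 libraries. The summed round spermatid markers, all 6 of 6 with a mean of at least 10, were 7386 to 10953 in TSA replicates 2 and 3, against 22109.5 to 34394 in the 7 other second-set libraries. The elongating spermatid markers were 192844 to 290894, against 254792 to 423513, and overlap. The Sertoli cell markers were 15533 to 18255, against 10750.5 to 15563, and the Leydig cell markers were 45108 to 52522, against 21201 to 49344. Both of these lists overlap as well. The summed spermatogonial markers were 4330 to 4458, against 2724 to 4083, and do not overlap, though each gene of that list does. Spermatocyte markers were 139533 to 151882, inside the 132815 to 266566 of the others. Most of that sum is Ldhc, at 80489 to 110627, against 82260 to 179159 in the others. The part of these cell types in the ADAM values was not tested.

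Close copies could exchange reads, so their sums were also compared. Of the 31-base stretches of Adam6a, 40.6% also occur in another gene, mostly Adam6b. Their summed value was 220.0 to 1540.0 normalised counts in TSA replicates 2 and 3, against 4988 to 7031 in the 7 other second-set libraries. Adam34, Adam34l and the related Gm5347 together had 304 to 350.4, against 863 to 2977. Adam20, Adam25 and Adam39 together had 1471 to 1982, against 3918 to 8468, and Adam26a and Adam26b had 1125 to 1133, against 1979.7 to 5952. Adam1a and Adam1b together had 7327 to 9094, against 9363 to 12433. Adam4 and the related Gm4787 together had 515 to 2158, against 6598 to 10082. No sum of the 2 TSA libraries overlapped the others. Adam29, which had 150.3 and 374 in these libraries, shares 0% of its stretches with another gene.

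Some genes that act with ADAM3 were low in the same libraries. Of 14 genes for the processing of ADAM3 and its place on the sperm surface, 10 were lower and 4 higher in TSA, with a median log2 difference of -0.37, and 0 passed the adjusted threshold. At an unadjusted p under 0.05 there were 5, all lower, namely Pdilt, Calr3, Prss37, Pmis2 and Prss55, where 5.33% of all genes tested were lower at that p. Pdilt, a testis chaperone needed for ADAM3, had 7130.2, 1346 and 2194 normalised counts in TSA, against 6027, 7626 and 12137 in Control, a log2 difference of -1.58 (SE 0.50). Calr3, the testis calreticulin, had 5934, 301 and 1633 in TSA, against 4650.3, 6492 and 7716 in Control, a log2 difference of -2.11 (SE 0.72). Both had an adjusted p of 0.848 by limma, and both lay within the Control range in TSA replicate 1.

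Of the somatic side in TSA, Adam12 was the 1 member with a higher value at an unadjusted p under 0.05. Adam12, a metalloprotease of mesenchymal and muscle precursor cells, had 113, 154 and 112 normalised counts in TSA, against 67.7, 72.3 and 79.0 in Control. The difference was 0.77 on the log2 scale (SE 0.31), with an adjusted p of 0.855 by limma. First-set libraries gave 0.68 and second-set libraries 0.73, and no TSA library overlapped Control, which held in the higher direction for 2.36% of all genes. Adam17 had 1087, 1637 and 1146 in TSA, against 977, 994 and 1165 in Control, a log2 difference of 0.28 (SE 0.22), and the groups overlap.

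Among 15 tested of 16 regulators of sheddases, such as the TIMP inhibitors, the tetraspanins that carry ADAM10 and the iRhoms that carry ADAM17, 13 were higher and 2 lower in TSA, with a median log2 difference of 0.35 and 0 called. The regulator median was -0.083 among first-set and 0.42 among second-set libraries. Timp4, an inhibitor of metalloproteases, had the smallest p, with a log2 difference of -3.05 (SE 1.14), and Tspan5 stood at 0.45. For Timp4 the difference was -1.28 among first-set and -3.13 among second-set libraries. Timp4 separates the library sets, with at least 40.5 normalised counts in the first and at most 36.7 in the second. Of 16 tested of 20 sheddase substrates, 11 were higher and 5 lower, with a median of 0.17 and 0 called. That median was -0.13 among first-set and 0.31 among second-set libraries. The smallest p-values were those of Notch3 at 0.72 and Cx3cl1 at 0.57. Notch3 stood at 0.55 among first-set and 0.87 among second-set libraries. Cx3cl1 stood at -0.47 among first-set and 0.94 among second-set libraries.

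In AA, Adam12 was the 1 somatic member whose libraries all lay above Control, and no member passed the test. By limma 0 members and 0 genes (0%) passed, and at an unadjusted p under 0.05 there was 1 member, Adam12, among 143 genes or 0.799%. Adam12 had 112, 164 and 181 normalised counts in AA, against 67.7, 72.3 and 79.0 in Control, with means of 152 ± 35.8 and 73.0 ± 5.69 (SD, n = 3 each). The difference was 1.03 on the log2 scale (SE 0.31), with an unadjusted p of 0.00609 and an adjusted p of 1.00. Every AA library was above every Control library, as for 2.81% of all genes, and the difference was 0.67 among first-set and 1.12 among second-set libraries.

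Over the 11 somatic members, 9 were higher and 2 lower in AA, with a median log2 difference of 0.29, where the median of all genes was -0.024. First-set libraries gave a median of 0.070 and second-set libraries 0.32. Adam17 had 1157, 1149 and 1546 normalised counts in AA, against 977, 994 and 1165 in Control, and AA replicates 1 and 2 lay below the highest Control library. Adam10 had 1315, 2370.1 and 3328 in AA, against 1283, 1223 and 2285 in Control, and the groups overlap. Summed Leydig cell markers were 34505 to 49344 in AA, against 25175 to 31934 in Control, and summed macrophage markers were 1440.5 to 2572 in AA, against 1027 to 1801 in Control. The macrophage sums overlap, and only AA replicate 3 lay above every Control library. The part of these cell types in the somatic ADAM values was not tested.

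With the same non-converging library weights, 6 members passed in AA among 37.1% of all genes. Germ cell members in AA were lower in 18 of 21 cases, with a median log2 difference of -0.10, and under quantile normalisation the split became 10 higher and 11 lower. With the library set in the model it turned to 14 higher and 7 lower, with a median of 0.15. Adam3 had 42802, 19093 and 16391 normalised counts in AA, against 55052, 44402 and 17171 in Control, and had a log2 difference of -0.55 (SE 0.63). The Adam3 difference was -0.21 among first-set and 0.043 among second-set libraries. Adam32 had 18045, 13429 and 16537 in AA, against 19212, 19708 and 20143 in Control, so the groups did not overlap, as for 2.23% of all genes in that direction. Its log2 difference was -0.31 (SE 0.37), with an adjusted p of 1.00 by limma.

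The lists around the family gave 0 calls in AA. Of the ADAM3 list, 5 were higher and 9 lower with a median log2 difference of -0.17, with Ly6k at -0.49 and Cmtm2b at -0.52 on the log2 scale. Of the regulators, 11 were higher and 4 lower with a median of 0.34. That median was -0.0042 among first-set and 0.30 among second-set libraries. Timp1, an inhibitor of metalloproteases, stood at 0.81 and Furin, which removes ADAM prodomains, at 0.86. Of the substrates, 13 were higher and 3 lower with a median of 0.29, with Cx3cl1 at 0.83 and Cd44 at 1.27.

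In HMS-I1, 14 of the 16 germ cell members with 1 coding exon were lower, by amounts inside the spread between libraries. By limma 0 members and 0 genes (0%) passed, and at an unadjusted p under 0.05 there were 0 members among 73 genes or 0.408%. Adam26a, the gene of a testase, had 3424, 3146 and 1558 normalised counts in HMS-I1, against 3104, 4247 and 4174 in Control, a log2 difference of -0.57 (SE 0.50). Adam30 had 3189, 3222 and 2513 in HMS-I1, against 2585, 2574 and 2963 in Control, a log2 difference of 0.13 (SE 0.20). HMS-I1 replicate 3 was the lowest of its group for both. No member separated all HMS-I1 from all Control libraries, where 1.35% of all genes did in each direction.

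Of 21 germ cell members, 16 were lower in HMS-I1 with a median log2 difference of -0.33. That median was 0.084 among first-set and -0.24 among second-set libraries, and with the library set in the model 11 were higher and 10 lower. Among somatic members, Adam12 had 78.5, 94.2 and 142 normalised counts in HMS-I1, against 67.7, 72.3 and 79.0 in Control, a log2 difference of 0.48 (SE 0.31). Adam15, a disintegrin of endothelial and epithelial cells, had 159, 245 and 332 in HMS-I1, against 346, 315 and 226 in Control, a log2 difference of -0.31 (SE 0.30). Both pairs of groups overlap. Of the ADAM3 list, 6 were higher and 8 lower, with Pgap1 at -0.35 and Pdilt at -0.35 on the log2 scale. Of the regulators, 11 were higher and 4 lower, with Tspan17 at 0.63 and Timp4 at -1.57. The regulator median was -0.19 among first-set and 0.23 among second-set libraries. For Timp4 the difference was -0.19 among first-set and -1.46 among second-set libraries. Of the substrates, 9 were higher and 7 lower, with Notch1 at -0.71 and Cx3cl1 at 0.61, and 0 genes of the lists were called. Notch1 stood at -1.47 among first-set and 0.37 among second-set libraries, so its direction differed between the sets.

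The log2 differences of the tested members in MTX lay between -0.59 and 0.39. By limma 0 members and 0 genes (0%) passed, and at an unadjusted p under 0.05 there were 0 members among 98 genes or 0.548%. Adam5 had 41123, 58416 and 45139 normalised counts in MTX, against 35696, 36689 and 36658 in Control. All MTX libraries were above all Control libraries, as for 1.32% of all genes, while 0 members were below all of them, as 1.15% of all genes were, and the log2 difference was 0.39 (SE 0.25) with an adjusted p of 1. Adam18 had 5522, 5945 and 5359 in MTX, against 4497, 4509 and 5529.8 in Control, a log2 difference of 0.22 (SE 0.17), and the highest Control library lay above 2 of the MTX libraries.

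The lower members by p were Adam11 and Adam1a, both of which separate the library sets. Adam11 had 136, 44.1 and 56.9 normalised counts in MTX, against 202, 125 and 46.9 in Control, and Adam1a had 7524, 4246 and 4222 in MTX, against 8888, 8374 and 4182 in Control. Their log2 differences were -0.59 (SE 0.65) and -0.40 (SE 0.57), and in the second set alone they were 0.093 and 0.018. Over the 21 germ cell members, 8 were higher and 13 lower with a median of -0.020, and with the library set in the model 19 were higher and 2 lower with a median of 0.21. Of the ADAM3 list, 7 were higher and 7 lower, with Ly6k at -0.13 and Cmtm2a at -0.17 on the log2 scale. Ly6k stood at -0.068 among first-set and 0.035 among second-set libraries. Cmtm2a stood at 0.045 among first-set and 0.091 among second-set libraries, above Control in both sets. Of the regulators, 6 were higher and 9 lower, with Rhbdf1 at -0.45 and Reck at -0.28. Of the substrates, 10 were higher and 6 lower, with Cd44 at 1.34 and Notch1 at -0.72, and 0 genes of the lists were called. Notch1 stood at -0.87 among first-set and 0.056 among second-set libraries.

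All 4 comparisons share the 3 Control libraries, so their values are given side by side and no agreement between them was counted. Adam12 was higher in each, by 0.31 in MTX, 0.48 in HMS-I1, 1.03 in AA and 0.77 in TSA on the log2 scale, and the low spread of the Control libraries, 67.7 to 79.0 normalised counts, enters every one of these. Across the 5 groups, the limma F-test called 0 members and 0 genes (0%), with 4 members (Adam24, Adam34, Adam34l and Adam12) among 230 genes (1.29%) at an unadjusted p under 0.05. Without TSA replicate 1, which leaves only second-set libraries in TSA, it called 10 members among 1.37% of all genes. With library weights it called 18 members among 31.5%.

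**Figure D4:**
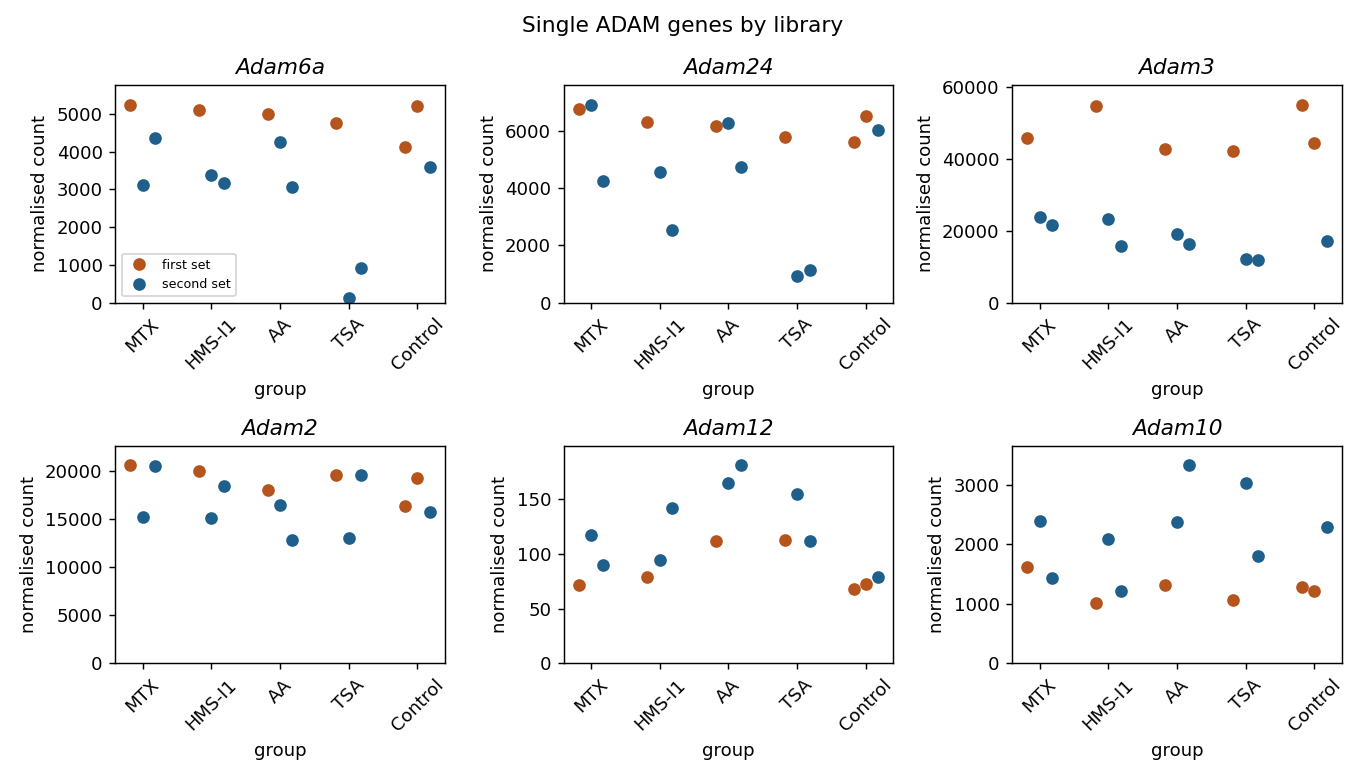
Normalised counts of Adam6a, Adam24, Adam3, Adam2, Adam12 and Adam10 in each library on linear axes from 0, by group in the order MTX, HMS-I1, AA, TSA and Control, coloured by library set. Adam6a is lowest at 119 in TSA replicate 2, Adam3 separates the sets, and the Control libraries of Adam12 lie at 67.7 to 79.0.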

How the data were processed

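RNA sequencing of whole testes gave 15 libraries, grouped by their titles. The deposited table is a signal of normalised counts for each gene and library. Per the submitters' processing notes, the build was GRCm39 and the authors used Salmon 0.12.0, DESeq2 1.34.0 and FastQC 0.11.9. Salmon estimates reads per transcript, and the deposited values are also scaled between libraries. The deposited signal holds no whole counts. Only 4.81% to 8.57% of low values of one-transcript genes lay within 0.01 of a whole multiple of the most frequent value, so reads were not recovered, no count model was used and no counting interval is given. The sources used here give no strand setting. All columns of the table were used, with 0 left out, and 0 pairs of libraries were identical.

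Of the 36118 identifiers, 35825 had a symbol in GENCODE M21, which is on GRCm38. It gave names, chromosomes, exons, transcript lengths and coding sequence. RefSeq (GRCm38.p6) renamed 1 member and gave the promoters. No coordinates of the authors' build are used. Lengths per kilobase come from the transcript with the longest coding sequence.

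Genes whose mean reached 10, 17896 in all, were tested in R 4.3.3 with limma 3.58.1 (lmFit, eBayes with trend) on log2(value + 1), which understates changes of low genes. The tests were two-sided with Benjamini-Hochberg adjustment over all genes and a threshold of 0.05, and the 5 group means shared 10 residual degrees of freedom. The fit was tested on simulated data. Members and lists were chosen with earlier results of these data known. Named are the 6 germ cell and 6 somatic members with the highest level per kilobase, the 2 higher and 2 lower members with the smallest p in each comparison, any member past the threshold, and the 3 with the widest range. Values by library are given for the groups a comparison is about, and for Adam1b, Adam2 and Adam15 partly as ranges. Of each list the 2 genes with the smallest p are named. Differences within a library set and shares of 31-base stretches are descriptions without a test.

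The alternatives covered the pseudocount, the filter, 2 rescalings, the library set as a term, a replicate block, library weights, only the 2 groups compared, and leaving out each library. The rescalings were trimmed-mean (TMM) factors, computed from their definition, and quantile normalisation. The second set alone was added after seeing the data.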

Additional observations from a re-analysis of the deposited data

How the results depend on the processing

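With all libraries and no library weights, 0 members passed in any comparison, and the named members kept their direction except where given. With only the 2 groups compared in the fit, 1 gene passed in MTX and 2 genes in AA, with 0 members. With array quality weights, 6645 genes and 6 members passed in AA, 4234 genes and 16 members in TSA, and 5640 genes and 18 members in the F-test, but the weights did not converge and gave AA replicate 2 a weight of 38.8, against 0.230 to 2.92 for the others. In the second set alone, where Control is 1 library assumed to vary like the other groups, 7 genes passed in TSA and 6 in the F-test, and the log2 difference turned to 0.093 for Adam11 and 0.018 for Adam1a in MTX, to -0.059 for Adam30 and 0.33 for Adam15 in HMS-I1, and to 0.043 for Adam3 in AA, and the cause was not tested.

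Leaving out 1 library at a time, the genes called ranged from 0 to 1 in MTX, HMS-I1 and AA, from 0 to 992 in TSA and from 0 to 246 in the F-test. The members called ranged from 0 to 12 in TSA and from 0 to 10 in the F-test, with 0 in the others. The calls in TSA and the F-test come without TSA replicate 1, apart from 1 gene in each comparison and the F-test without Control replicate 1 and 1 gene in the F-test without HMS-I1 replicate 3.

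The titles give the groups the same replicate numbers, but the labels do not say that a number marks a shared animal or batch. Against the same-numbered Control library, deviations correlated at 0.41 to 0.52 for replicate 1, at -0.58 to -0.30 for replicate 2 and at 0.21 to 0.67 for replicate 3. Control replicate 2 is in the first set and the other replicates 2 are in the second. Not every correlation was over 0.1, so the numbers were not taken to pair the libraries. With the replicate block, 0 members passed in each comparison. Quantile normalisation moved the median of all genes in TSA to 0.11 on the log2 scale, and the germ cell median was then -1.29. The main limma fit has no term for the library set, so set differences count in its spread. For MTX, HMS-I1 and AA, 0.548%, 0.408% and 0.799% of genes had an unadjusted p under 0.05 in that fit. These are below the share of 0.05 that tests without any difference would give. The lack of calls there does not show that no gene differs. The unknown depth and 3 libraries a group limit what the tests can show.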
